A study of Rattus norvegicus with 29 samples.

Results

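Duodenum arrays from 12 rats that underwent the sham operation for sleeve gastrectomy differed widely in RNA of the pancreas, and the 6 richest were set against the 6 poorest. These 12 arrays are part of 29 in the series. The sides were chosen by measured values. Each array was scored by the mean log2 value of Prss1 (a trypsinogen), Ctrb1 (chymotrypsinogen B) and Cela3b (a pancreatic elastase). The ranked scores were cut at their middle. Values are log2 RMA values, in which the background is corrected, the arrays are brought to a common distribution and the probes of a gene are summarised. All 29 arrays came from male wild-type (WT) Long-Evans rats of 8 to 10 weeks, with 1 array per animal. The 12 sham rats had received liquid diet (Osmolite) the day before surgery, then isoflurane anaesthesia, a midline incision and blunt-forceps pressure on the exposed stomach along the line used for vertical sleeve gastrectomy (VSG). Of these rats, 6 were pair-fed shams and 6 were shams without paired feeding. The 17 other arrays came from 6 rats with RYGB (Roux-en-Y gastric bypass), 6 with VSG and 5 with the sham operation for RYGB. The labels call the arrays of a group biological replicates.

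The exocrine pancreas lies against the wall of the duodenum. Its acinar cells make digestive proteases, lipases and nucleases, store most of the proteases as inactive zymogens in granules and release them through ducts into the duodenal lumen. The islets, scattered through the acinar tissue, make insulin, amylin, glucagon and other hormones. Acinar genes are switched on by the PTF1 complex, in which Ptf1a and Rbpjl act together on a pair of short DNA motifs in the promoters of enzyme genes, an E-box and a TC-box. In a bulk sample such as these, fewer cells of a type and less RNA per cell cannot be told apart.

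The promoters of the 3 scoring genes are shown because their values chose the arrays, with Cela1 (an elastase) because it carries the same motif pair as Ctrb1, and Ins2 (preproinsulin) as an islet gene for comparison. Each is the RefSeq sequence of build GRCr8 from 250 bases before to 50 bases after the gene's start, 5′ to 3′ on the gene's strand. Ctrb1 is at chr19:56566929-56567228 (minus strand), Cela1 at chr7:133665012-133665311 (minus), Prss1 at chr4:71330999-71331298 (plus), Cela3b at chr5:154920284-154920583 (minus) and Ins2 at chr1:207273756-207274055 (minus). Capitals mark the E-box CACCTG and the TC-box TTTCCC, the TC-box as GGGAAA where it lies on the other strand.
Ctrb1: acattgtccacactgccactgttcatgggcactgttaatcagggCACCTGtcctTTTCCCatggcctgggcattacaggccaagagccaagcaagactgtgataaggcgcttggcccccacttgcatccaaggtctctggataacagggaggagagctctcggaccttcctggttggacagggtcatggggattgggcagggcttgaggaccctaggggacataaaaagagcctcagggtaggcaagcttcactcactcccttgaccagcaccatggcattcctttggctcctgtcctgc
Cela1: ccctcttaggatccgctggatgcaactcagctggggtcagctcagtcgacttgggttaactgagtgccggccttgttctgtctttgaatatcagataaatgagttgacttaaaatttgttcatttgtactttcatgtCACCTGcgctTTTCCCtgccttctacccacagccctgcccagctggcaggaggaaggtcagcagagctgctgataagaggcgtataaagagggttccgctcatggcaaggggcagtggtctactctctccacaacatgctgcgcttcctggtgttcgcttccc
Prss1: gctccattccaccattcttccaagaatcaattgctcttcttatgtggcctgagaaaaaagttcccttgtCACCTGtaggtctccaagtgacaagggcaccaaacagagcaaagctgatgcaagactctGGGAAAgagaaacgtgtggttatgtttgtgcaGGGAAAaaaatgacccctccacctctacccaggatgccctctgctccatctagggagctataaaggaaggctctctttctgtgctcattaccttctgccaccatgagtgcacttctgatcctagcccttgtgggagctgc
Cela3b: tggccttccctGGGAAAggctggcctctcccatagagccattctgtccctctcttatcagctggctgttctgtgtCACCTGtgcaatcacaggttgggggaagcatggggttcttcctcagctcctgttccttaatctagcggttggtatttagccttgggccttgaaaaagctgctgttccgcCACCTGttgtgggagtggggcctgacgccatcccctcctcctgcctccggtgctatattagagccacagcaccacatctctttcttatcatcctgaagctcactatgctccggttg
Ins2: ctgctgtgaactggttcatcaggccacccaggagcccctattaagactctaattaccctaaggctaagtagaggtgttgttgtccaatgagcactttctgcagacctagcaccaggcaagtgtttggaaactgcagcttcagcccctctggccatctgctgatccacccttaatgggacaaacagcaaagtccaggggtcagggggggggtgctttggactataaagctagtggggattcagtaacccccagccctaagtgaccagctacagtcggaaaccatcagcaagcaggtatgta

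Both motifs were found in all 4 acinar promoters and neither in the Ins2 window. In Ctrb1 the E-box began 206 bases before the start and the TC-box 196 bases before it. In Cela1 they began 113 and 103 bases before the start, so that both genes hold the composite CACCTGNNNNTTTCCC. The composite overlaps the other motifs by construction. All were searched on both strands, as was the TATA-box form TATAAA, which is not in capitals above. RefSeq promoters were matched for 16 of the 18 protease and hydrolase genes measured. CACCTG was in 10 of the 16 (62.5%), against 18.7% of all 27457 promoters of the same length. TTTCCC was in 7 (43.8%), against 25.2% of all promoters, and TATAAA in 6 (37.5%), against 14.3%. The composite was in 2 of the 16 and in 9 of all 27457 promoters (0.0328%). Besides the 4 shown, Cel alone of the 16 held both CACCTG and TTTCCC. A match describes the letters in the window and not a site that is bound.

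The score ran over more than 8 log2 units, and both feeding groups were found on each side. From high to low it was 10.36 in pair-fed sham 1, 10.23 in pair-fed sham 6, 9.64 in sham 1, 8.11 in sham 4, 6.29 in pair-fed sham 4 and 5.94 in sham 3 on the pancreas-rich side. On the pancreas-poor side it was 5.89 in sham 5, 5.34 in pair-fed sham 2, 2.69 in pair-fed sham 3, 2.50 in sham 2, 2.33 in pair-fed sham 5 and 1.99 in sham 6. Each side thus held 3 pair-fed shams and 3 shams. The mean score was 8.43 ± 1.96 on the rich side and 3.46 ± 1.70 on the poor side (SD, n = 6 each), and these values describe the choice of the arrays. The sides met within 0.06 log2 units between ranks 6 and 7, whereas ranks 4 and 5 lay 1.82 apart and ranks 8 and 9 lay 2.65 apart. Ranks 3 and 4 were 1.52 apart, so the top 4 arrays were not close to each other. Cut at the gaps after ranks 4 and 8, the arrays form 3 levels of 4, and the rich and poor sides share the middle one. Acinar tissue taken with the duodenum and a difference in acinar RNA itself cannot be told apart in these arrays.

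**Figure D1:**
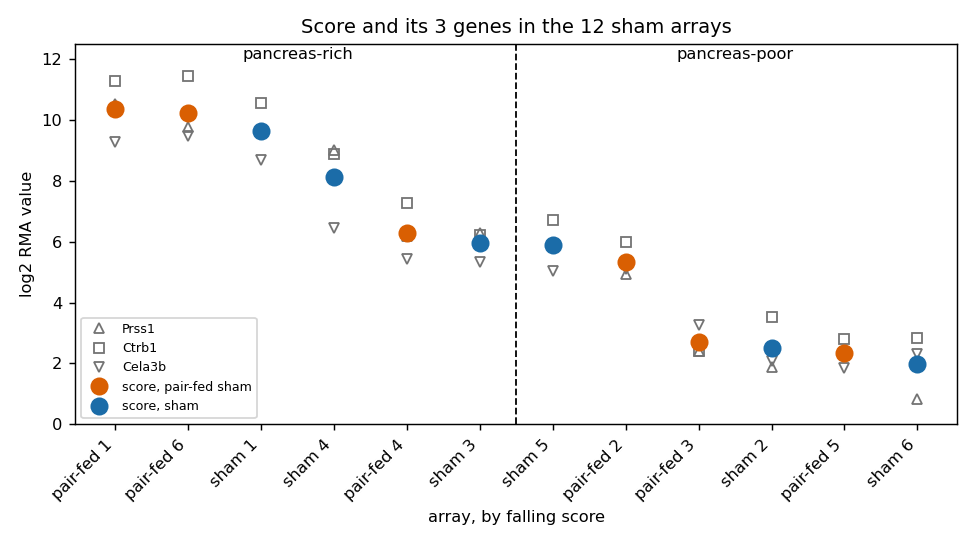
Score (filled circles, mean log2 RMA value of the 3 genes) and each scoring gene (open symbols) in the 12 sham arrays, ordered by falling score, with the dashed line between the pancreas-rich and the pancreas-poor side. The 4 leftmost arrays lie between 8.11 and 10.36, the middle 4 between 5.34 and 6.29 and the right 4 between 1.99 and 2.69, with both feeding groups at every level.

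The 3 scoring genes moved together. Prss1 was between 6.18 and 10.54 on the rich side (median 9.33), against 0.82 to 5.92 on the poor side (median 2.37). Ctrb1 ran from 6.23 to 11.44 on the rich side (median 9.72) and from 2.41 to 6.71 on the poor side (median 3.18). Cela3b was between 5.32 and 9.47 (median 7.57) on the rich side, against 1.85 to 5.11 (median 2.79) on the poor side. The sides overlapped for Ctrb1 but not for the other two. Values near the bottom of these ranges lie at the level where most rows of an array sit (array medians 2.80 to 2.97), so differences against them, here and for the other enzymes, are inexact and no fold is given.

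Markers of the duodenal epithelium were high in all 12 arrays. Vil1 (villin of the enterocyte brush border) was 9.68 to 10.04 on the rich side and 9.39 to 10.15 on the poor side. Fabp2, the intestinal fatty acid binding protein, was 11.52 to 11.77 on the rich side and 11.25 to 11.57 on the poor side. Tmprss15, the duodenal enteropeptidase that activates trypsinogen, was 9.42 to 10.03 on the rich side and 9.04 to 10.01 on the poor side, a difference of 0.07.

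Most pancreatic enzymes followed the 3 genes. Of 33 listed proteases, lipases and other hydrolases, 18 were measured and the 15 outside the score had a median difference of 3.49 log2 units between the rich and the poor side, against −0.03 for all 14554 genes. Of the 15, 13 were higher on the rich side, among them the duodenal Tmprss15 with its difference of 0.07. Of all genes 42.6% were higher there, and 57.2% after each array was centred on its median. For 5 of the 15 (Cela1, Cela2a, Cpa1, Ctrl and Pnlip) every rich array lay above every poor array, as it did for 0.151% of all genes. These genes measure what the rule measured, so no p is given for any of them in the 12 arrays, and counts of calls there are read as descriptions.

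Among the proteases, Prss3b (a trypsinogen) was 5.28 to 10.56 on the rich side with a median of 9.20, against 2.02 to 6.34 with a median of 2.33 on the poor side. The difference was 4.94 log2 units, and the highest poor array lay above the lowest rich one. Cela2a (elastase) was 6.34 to 10.61 on the rich side (median 8.74) and 2.85 to 6.17 on the poor side (median 3.15), a difference of 4.46. Cpa1, carboxypeptidase A1, was 4.41 to 9.09 on the rich side (median 7.20) and 1.62 to 3.85 on the poor side (median 2.28), 4.30 apart. Neither gene overlapped between the sides. Ctrc, the chymotrypsin that regulates trypsinogen activation, was 3.49 higher and Ctrl, a chymotrypsin-like protease, 3.08 higher on the rich side. Try10 (a trypsin) differed by only 0.70, and Klk1, tissue kallikrein, by −0.36. Klk1 was 0.65 to 2.51, below the array median in all 12 arrays, so its difference is inexact. A trypsinogen row that the annotation names PRSS2 was 4.99 to 9.57 on the rich side and 2.48 to 5.24 on the poor side, a difference of 4.19. Trypsins are near-identical in sequence, so a row may pick up RNA of another family member.

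Among the lipases, Pnlip, the main triglyceride lipase of pancreatic juice, had the steadiest pattern. It was 9.67, 9.88, 9.05, 7.70, 5.64 and 5.91 in the rich arrays in order of score, against 5.12, 5.14, 3.00, 2.27, 2.01 and 2.34 in the poor arrays. The difference was 4.66, and Pnlip had the highest Pearson r with the score of all genes, 0.995 over the 12 arrays. Cel, the bile salt-dependent lipase, was 4.47 higher on the rich side, and Pnliprp1, a pancreatic lipase relative, 3.75 higher. Pla2g1b, the phospholipase A2 of pancreatic juice, was 6.72 to 10.49 on the rich side and 5.89 to 6.81 on the poor side, 2.62 apart. Rnase1, pancreatic ribonuclease, was 3.50 higher, while Rnase1l2 of the same family differed by −0.27. Rnase1l2 was 2.53 to 3.65, around the array medians.

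The 3 levels of the score recurred in the enzymes. For 11 of the 15 tested, the 4 top arrays all lay above the middle 4 and these above the bottom 4, a pattern that 0.103% of all genes showed. Pnlip averaged 9.07 in the top 4, 5.45 in the middle 4 and 2.41 in the bottom 4. Cpa1 averaged 8.07, 4.17 and 2.01 in the same order. The remaining 4 were Klk1 and Rnase1l2, which lay below or around the array medians, Tmprss15 and Try10. Because the levels were seen in the score first, these counts describe the enzymes and test nothing.

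**Figure D2:**
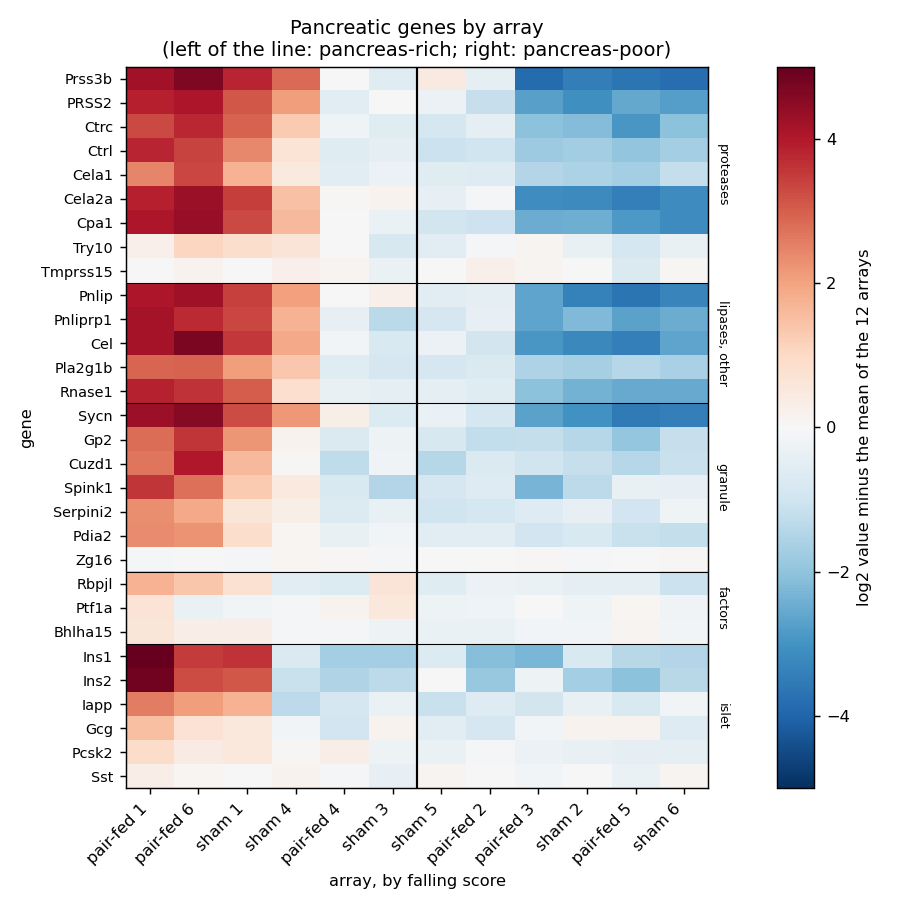
Log2 value minus the mean of the 12 arrays (colour) for pancreatic genes (down the page) in the 12 arrays, ordered by falling score, with the pancreas-rich arrays left of the vertical line and the pancreas-poor arrays right of it. Most enzyme rows fall in 3 steps, Tmprss15 and Zg16 are flat, and Ins1, Ins2 and Iapp are high only in the 3 leftmost arrays.

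Some genes of the zymogen granule followed the score and others did not. Of 26 measured members of this list, 21 were higher on the rich side, against 42.6% of all genes (57.2% after centring). The list had a median difference of 0.27, but 6 members differed by more than 1 log2 unit. Sycn (syncollin, of the granule membrane's inner face) was 5.11 to 10.37 on the rich side and 2.28 to 5.46 on the poor side, 4.62 apart. Gp2, the major granule membrane glycoprotein, was 3.76 to 8.07 on the rich side and 2.54 to 3.71 on the poor side, 2.60 apart with no overlap. Cuzd1, another granule membrane protein, was 2.28 higher, Spink1, the trypsin inhibitor, 1.96 higher, Pdia2, a disulfide isomerase of acinar cells, 1.71 higher, and Serpini2, a pancreatic serpin, 1.36 higher. Zg16, which goblet cells of the gut also make, was 11.46 to 11.66 on the rich side and 11.47 to 11.60 on the poor side.

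Transcription factors of acinar cells differed less than the enzymes. Rbpjl, the acinar-restricted subunit of PTF1, was 2.49 to 4.94 on the rich side and 2.10 to 2.87 on the poor side, a difference of 1.11. Ptf1a was 1.71 to 2.72 on the rich side and 1.78 to 2.14 on the poor side, and Bhlha15 (MIST1, which shapes the secretory cell) differed by 0.31. Ptf1a lay below the array median in all 12 arrays, so a fold there is inexact. Rbpjl on the poor side lay near or below the array medians, so its difference is inexact too. Of the 10 factors measured, 8 were higher on the rich side, with a median difference of 0.14. Of all genes 42.6% were higher there, and 57.2% after centring. Some factors stood high on both sides, such as Gata4 (7.53 to 7.98 rich, 7.62 to 7.75 poor). A difference in acinar RNA may not show in their values.

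Islet hormones did not follow the score step by step. Ins1 (preproinsulin) was 9.36, 7.14 and 7.25 in the 3 arrays of highest score and 2.92, 1.95 and 1.96 in the other rich arrays, against 1.37 to 2.97 in the poor arrays. Sham 4, with the next score of 8.11 after a gap of 1.52, thus had Ins1 at the level of the poor side. Ins2 was 8.54, 6.98 and 6.81 in the same 3 arrays, 2.60 in sham 4, and 1.66 to 3.71 on the poor side. Iapp (amylin, co-secreted with insulin) was 6.22, 5.74 and 5.40 in the 3 arrays, 2.35 in sham 4, and 2.54 to 3.51 on the poor side. Over the 12 arrays the Pearson r of Ins1 was 0.955 with Ins2 and 0.937 with Iapp, and Ins1 and Ins2 are near-identical genes. The 12 arrays share the score's 3 levels, so these values describe a step in 3 arrays.

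The other islet genes were flatter. Gcg (proglucagon, also made by gut endocrine cells) was 6.80, 5.99 and 5.81 in the 3 arrays of highest score, 5.44 at most in the other rich arrays and 4.42 to 5.45 on the poor side. Pcsk2, the convertase that processes prohormones in islet cells, was 0.66 higher on the rich side, and Mafa, a beta-cell transcription factor, 0.54 higher. Sst (somatostatin) differed by 0.05 and Chgb (chromogranin B, a granule protein) by −0.00, both being made in the gut wall as well. Of 22 measured islet genes 15 were higher on the rich side, against 42.6% of all genes (57.2% after centring). The list had a median difference of 0.18. The mean of the list was 3.80 to 4.86 on the rich side and 3.76 to 3.96 on the poor side.

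Genes named for pancreatic ducts did not follow the score, apart from Tff2. The 12 tested had a median difference of −0.03, and Cftr (the chloride channel of duct and crypt) differed by 0.09 and Krt19, an epithelial keratin, by −0.05. Enterocytes and crypts of the duodenum also express several of these genes. Tff2, a peptide of Brunner glands and gastric mucous cells, was 3.47 to 7.06 on the rich side and 3.28 to 4.73 on the poor side, 1.14 apart. It was highest in the 3 arrays that also had high insulin, at 6.22, 7.06 and 5.70.

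**Figure D3:**
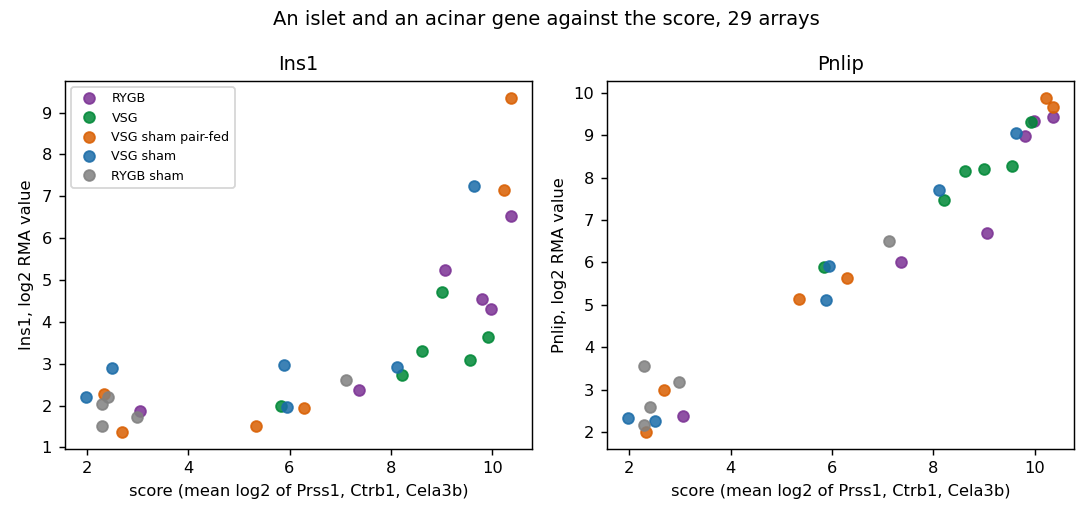
Log2 RMA value of Ins1 (left panel) and Pnlip (right panel) against the 3-gene score in all 29 arrays, coloured by group. Pnlip rises with the score, whereas Ins1 stays at or below 2.97 in every array with a score up to 8.11 and reaches 9.36 in a pair-fed sham.

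In the 17 arrays that the rule did not use, the same enzymes rose with the score. The score was 3.06 to 10.36 in RYGB (median 9.43), 5.84 to 9.92 in VSG (median 8.81) and 2.29 to 7.12 in the RYGB sham (median 2.42). Within these 3 groups, a common slope of each gene on the score was tested with limma, and Benjamini-Hochberg adjustment covered all 14554 genes. At an adjusted p under 0.05, 16 genes rose (0.11% of all) and 1 fell (0.00687%). Of the 16, 15 were in the acinar lists and the other was PRSS2. Slopes are in log2 units per log2 unit of score. Pnlip had a slope of 0.88 ± 0.06 (SE), Prss3b of 1.01 ± 0.05, Sycn of 0.94 ± 0.04, Cpa1 of 0.96 ± 0.05 and Cela1 of 0.50 ± 0.07. A common slope can hide unlike groups. That of Cela1 was 0.61 in RYGB, 0.58 in VSG and 0.23 in the RYGB sham, and that of Prss3b 1.05, 0.91 and 1.00. The score is itself 3 enzyme genes measured on the same arrays, and a slope says that genes moved together.

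A slope on the score over the 12 sham arrays passed an adjusted p of 0.05 in limma for 19 genes, all rising (0.131% of all genes). That fit uses the values and arrays of the rule, so the count is a description and supports nothing. Of the 19, 3 were not called in the 17 arrays, Prss3bl1 and Spink1l, which by name resemble Prss3b and Spink1, and Pcsk2. Prss3bl1 had a slope of 0.41 ± 0.11 there (limma adjusted p = 0.635), Spink1l of 0.38 ± 0.09 (limma adjusted p = 0.226) and Pcsk2 of 0.01 ± 0.03 (limma adjusted p = 1.00).

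One array carried part of the calls in the 17. RYGB 5 had the lowest score of its group, 3.06, and without it 13 genes were called, with Cela1, Cuzd1, Gp2 and Pdia2 no longer past the threshold. Zdhhc2, a palmitoyltransferase and the one gene that fell, had a slope of −0.17 ± 0.03 (limma adjusted p = 0.0315) and was called in 9 of the 17 fits that each leave out an array. It was not called without RYGB 5, RYGB sham 1 or 5, or VSG 1, 2, 4, 5 or 6. In the 12 sham arrays its slope was −0.02.

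No array outside the 12 shams reached the Ins1 level of the 3 high sham arrays. Ins1 was 1.87 to 6.54 in RYGB, 2.00 to 4.72 in VSG and 1.52 to 2.62 in the RYGB sham, and its slope in the 17 arrays was 0.42 ± 0.09 (limma adjusted p = 0.125). Without RYGB sham 1 it was called (limma adjusted p = 0.0451), the only 1 of the 17 such fits to do so. RYGB 4 had a score of 10.36, like pair-fed sham 1, with Ins1 at 6.54, against 9.36 in pair-fed sham 1. The Tff2 slope in the 17 arrays was −0.28 ± 0.13 (limma adjusted p = 1.00) and 0.16 without RYGB 5, where Tff2 stood at 9.80, against 0.31 in the 12 shams. By group the Tff2 slope was −0.51 in RYGB, 0.39 in VSG and −0.18 in the RYGB sham. Differences between these Tff2 slopes were not tested.

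**Figure D4:**
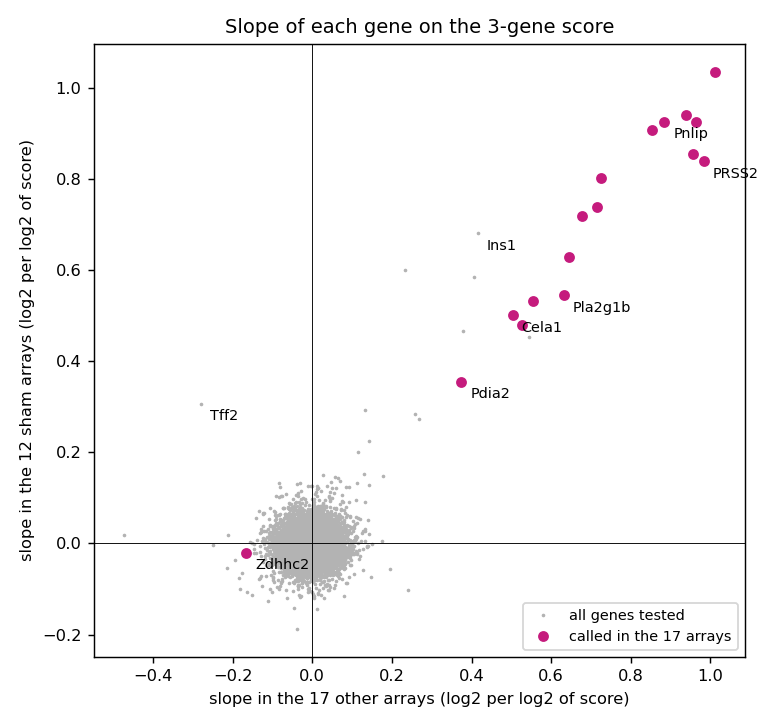
Slope of each gene on the 3-gene score in the 12 sham arrays (vertical axis) against its slope in the 17 other arrays (horizontal axis), in log2 units per log2 unit of score. The 16 genes that rose in the 17 arrays lie along the upper right, from Pdia2 at 0.37 to Prss3b at 1.01 on the horizontal axis, apart from the cloud of all genes, while Zdhhc2 lies at −0.17.

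No gene of any kind was called between the rich and the poor side. With 2 means over the 12 arrays, limma called 0 of 14554 genes at an adjusted p under 0.05 (0% of all), the enzymes included. At an unadjusted p under 0.05 it found 404 genes higher (2.78%) and 587 lower (4.03%) on the rich side. Centring each array on its median turned this split to 708 higher and 277 lower, and a further quantile normalization gave 423 and 411. Without the middle 4 arrays 13 genes were called (0.0893% of all), all higher on the rich side, and PRSS2 was the 1 outside the pancreatic lists. Those 4 arrays were left out by their score, which widens the contrast that the rule set, so this count too is a description only.

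Lists of other cell types and processes had median differences near that of all genes. These 27 lists had median differences from −0.19 (T cells and natural killer cells) to 0.13 (MHC class II). After centring, which moves the median of all genes from −0.03 to 0.03, the list medians ran from −0.14 to 0.18, with 18 of the 27 above 0, against 9 of the 27 without centring. Of their 386 members outside the pancreatic lists, 159 were higher and 227 lower on the rich side. Of all genes 42.6% were higher there, and 57.2% after centring. Of the 386, limma called 0, as it did of all 14554 genes. At an unadjusted p under 0.05, 6 were higher and 13 lower, against 2.78% and 4.03% of all genes. The pointwise 95% interval of the difference lay within 2-fold either way for 369 of the 386, and for 14313 of all 14469 genes outside the pancreatic lists.

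**Figure D5:**
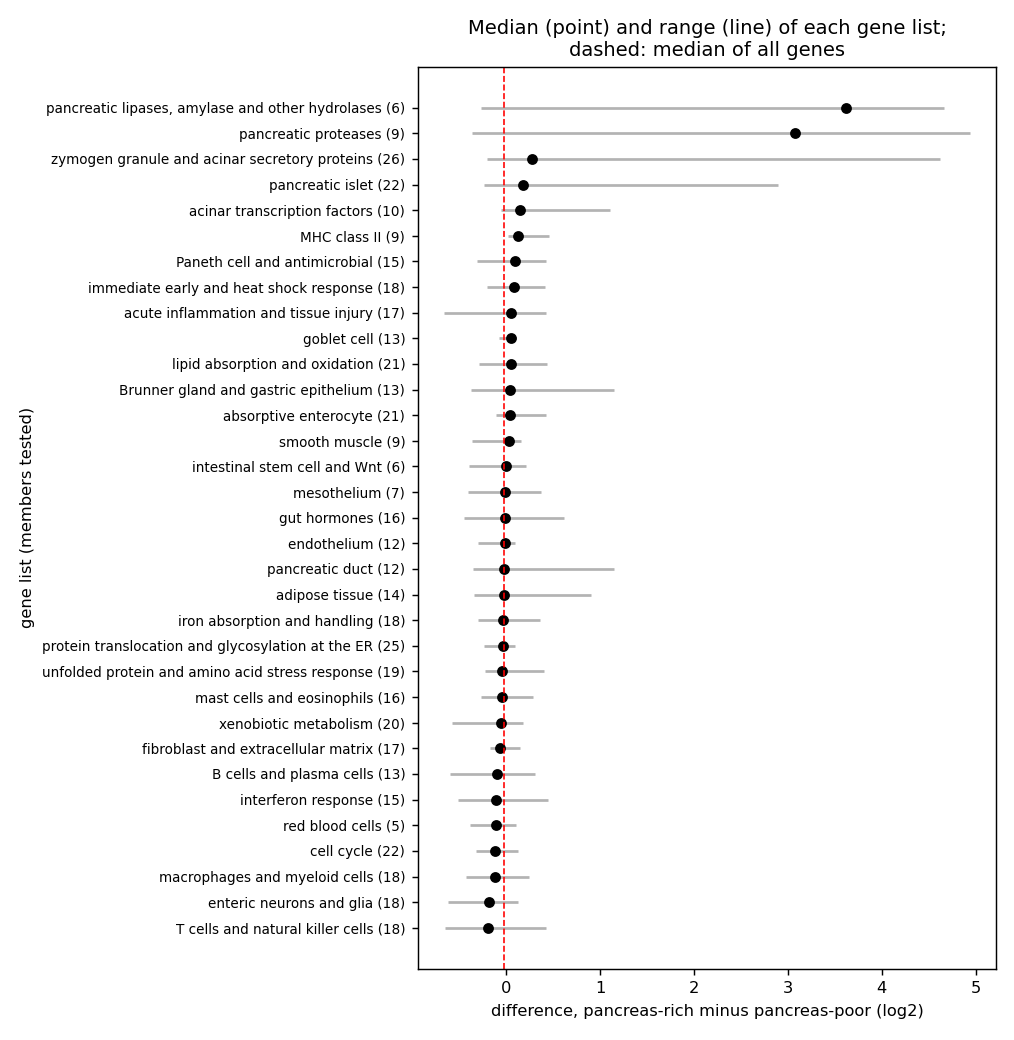
Difference between the pancreas-rich and the pancreas-poor arrays (log2) for each gene list, as the median (point) and the range (grey line) of its tested members, whose number is in brackets. The enzyme lists have medians above 3, and the 27 lists of other cell types and processes lie between −0.19 and 0.13, around the median of all genes (dashed line, −0.03).

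Genes of iron absorption, the subject of the series, were not called between the sides, where 0 of all 14554 genes were called. That count does not set the iron genes apart, so their values are given. Cybrd1, the duodenal ferric reductase, was 9.47 to 11.20 on the rich side (median 10.27) and 8.99 to 11.16 on the poor side (median 10.45), a difference of −0.01 with a 95% interval of −0.70 to 0.68. Slc40a1 (ferroportin, the iron exporter) differed by −0.13 (−0.51 to 0.25), Heph (hephaestin, the ferroxidase beside it) by 0.01 (−0.27 to 0.29) and Tfrc (transferrin receptor) by 0.07 (−0.22 to 0.36). Hmox1, the haem oxygenase, had the widest interval of the 5, −0.81 to 0.75 around −0.03. The values of Cybrd1 and Hmox1 near 0 average opposite signs in the feeding groups. Cybrd1 differed by −0.41 in shams and 0.39 in pair-fed shams, and Hmox1 by −0.48 and 0.42. Limma called neither feeding difference. Of the 18 iron genes tested, 7 were higher and 11 lower on the rich side, beside 42.6% of all genes higher there, a share that centring turns to 57.2%.

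Hormone, muscle, stromal and secretory genes were also among the 14554 genes of which 0 were called. Gip, the incretin of duodenal K cells, was 8.96 to 9.60 on the rich side and 9.05 to 9.48 on the poor side. Ghrl (ghrelin) differed by −0.01, Actg2 (smooth muscle actin) by 0.06, Col1a1 (collagen) by −0.11, Lyz2 (lysozyme) by 0.06 and Adipoq (adiponectin of fat cells) by 0.09. Adipoq was 1.41 to 2.67, below the array median in all 12 arrays, so its difference is inexact. The 14 adipose genes tested had differences from −0.34 to 0.90 and a median of −0.03. Upk3b, a mesothelial marker of the organ surface, differed by −0.40 with an interval of −1.01 to 0.20. It differed by −1.08 in shams, where sham 4 on the rich side was 2.63, and by 0.28 in pair-fed shams. Limma did not call this feeding difference. Hspa5, the chaperone BiP of the endoplasmic reticulum, abundant in secretory cells, was 9.90 to 10.32 on the rich side and 9.91 to 10.42 on the poor side. The 25 tested genes of protein translocation and glycosylation had a median difference of −0.04.

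Outside the pancreatic lists and PRSS2, the 7 smallest p-values did not pass the adjustment. Ddah1, which degrades methylarginines, was 4.59 to 5.19 on the rich side and 5.11 to 5.89 on the poor side, a difference of −0.75 (limma adjusted p = 0.234). Il1b, the inflammatory cytokine, was 3.03 to 3.66 on the rich side and 3.81 to 4.48 on the poor side, −0.66 apart with no overlap (limma adjusted p = 0.273). Every rich array lay below every poor array for 0.234% of all genes. The bitter taste receptor Tas2r107 differed by −0.79, the orphan receptor Gpr17 by 0.70, the TFIIH subunit Gtf2h4 by −0.50, the kinase anchor Akap3 by −0.57 and the mitochondrial protein Mgarp by 0.52, with limma adjusted p-values from 0.234 to 0.285. Tas2r107 (0.495 to 1.993) and Akap3 (1.579 to 2.624) lay below the array median in all 12 arrays, so their differences are inexact. So is that of Mgarp, whose poor-side values (2.25 to 2.82) lay near or below the array medians. In the 17 other arrays 6 of these 7 had a slope of the same sign, and limma called none of them, the smallest adjusted p being 1.00.

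No gene's split was called as different between the feeding groups. The rich minus poor difference was 5.02 in pair-fed shams and 4.31 in shams for Pnlip, and 4.92 in pair-fed shams and 3.67 in shams for Cpa1. For Ins1 it was 4.43 in pair-fed shams and 1.36 in shams, where 2 of the 3 rich arrays of pair-fed shams and 1 of the 3 rich arrays of shams carried high insulin. The difference between the feeding groups called 0 of 14554 genes in limma (0% of all) and 788 at an unadjusted p under 0.05 (5.41%). The smallest p-values were those of Rtn2, Rnase6, Rpl28l1 and Ntf4, with a limma adjusted p of 0.792 each. Their pair-fed minus sham differences of the split were 1.18, 2.34, 1.44 and −1.02. Ntf4 (1.24 to 2.08) lay below the array median in all 12 arrays. Rnase6 (2.40 to 4.69) lay near or below it in several, so both differences are inexact.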

How the data were processed

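RNA of the duodenum was hybridised to Affymetrix arrays, 1 per rat. The deposited values are log2 expression values made with RMA in Affymetrix Expression Console 1.3.0.187, per the submitters' processing notes. The sources used here do not give the chip definition, its genome build or any filter. Arrays give no read depth, so their number limits precision.

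Of 36685 rows, 14824 had 1 gene symbol in the platform annotation, 829 had more than one and 21032 had none. The symbols were checked against the GRCr8 gene table, where 154 Entrez numbers were not found. Each of 14557 genes was represented by the brightest of its rows over the 12 arrays; 234 had a choice of rows. No array was a copy of another (highest correlation 0.977). The sides were compared with limma 3.58.1 in R 4.3.3 (lmFit, eBayes) with the 3 scoring genes left out, leaving 14554, two-sided p-values and Benjamini-Hochberg adjustment over all of them. A slope on the score was fitted in the 17 other arrays with 3 group means, and the split was compared between feeding groups with 4 means. The scripts were tested on simulated data.

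The members, the 33 gene lists and the tests were chosen with earlier results of these data known. The genes named are all measured members of the 6 pancreatic lists as values or counts, a panel of 18 genes (Muc2 and Cd79b, without a row, were not analysed here), the 8 genes of smallest p between the sides, 4 for the feeding difference and the 10 most like the score. Genes named for other reasons, such as Napepld and St6galnac1, were chosen after their values were seen. Alternatives were feeding as a term, the replicate number as a block, each feeding group alone, all 29 arrays, leaving out arrays, a continuous score, a filter on dim genes, other rows, another prior, 2 scalings and array weights.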

Additional observations from a re-analysis of the deposited data

Results flagged for a closer look

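Of 62 sets of 6 values checked, 5 held an array far from the other 5, by a criterion that chance meets in about 1 of 20 sets. Hmox1 was 7.79 in sham 4 on the rich side, where the other rich arrays lay between 6.58 and 6.80. Gpr17 was 4.82 in sham 1 on the rich side, where the others lay between 4.16 and 4.34. On the poor side Cybrd1 was 8.99 in pair-fed sham 5, where the others lay between 10.37 and 11.16. Vil1 was 9.39 in pair-fed sham 3, where the others lay between 9.92 and 10.15. Ddah1 was 5.11 in pair-fed sham 2, where the others lay between 5.66 and 5.89.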

How the results depend on the processing

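The count of 0 genes called between the sides was 0 in each of the 12 fits that leave out 1 array and under the feeding term, each feeding group alone, all 29 arrays, the filter, the row choices, the prior, both scalings and the array weights. It was 6 without the arrays ranked 6 and 7, 13 without the arrays ranked 5 to 8 (chosen after seeing the data) and 19 with the continuous score. The median difference of the 15 enzymes was 3.49, between 3.08 and 3.94 with 1 array left out, and 5.13 without ranks 5 to 8. In the 17 other arrays the count of 17 ran from 13 to 22 with 1 array left out, and was 8 in the RYGB sham alone, 12 in RYGB alone and 16 in VSG alone. RYGB sham 1 had a score of 7.12 and the rest of its group 2.29 to 2.98, so the slopes in that group rest on 1 array. The cause of these shifts was not tested. With the replicate block limma called 0 genes (1077 at an unadjusted p under 0.05). The numbers did not pair the arrays, since deviations of same-numbered arrays correlated at −0.19 to 0.20 and only 2 of the 6 shams correlated best with their own number. The feeding difference called 0 genes under all 3 of its alternatives. The main limits are 6 arrays per side, 3 of them per feeding group, a score cut within 0.06 log2 units, RMA values without detection calls, and rows that related trypsins and insulins may share.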

Other observations

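Outside the pancreatic lists, 7 genes differed by more than 1 log2 unit between the sides, none of them called by limma. PRSS2, Prss3bl1 and Spink1l were higher on the rich side, as described, and so was 1810009J06Rikl, at 1.27 to 4.96 on the rich side and 1.37 to 1.77 on the poor side. Napepld, St6galnac1 and the immunoglobulin segment Igkv2-112l2 made up the other three.

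St6galnac1, a sialyltransferase of mucin chains, stood at separate levels in the 29 arrays. It lay between 6.96 and 7.75 in 11 arrays and between 1.33 and 2.33 in 18, with no array between. Of the high arrays 5 were on the rich side and 2 on the poor side, which gives the difference of 2.76 (limma adjusted p = 0.713), and arrays of all 5 groups were among them. Napepld, which makes N-acylethanolamines, was at 5.67 to 7.14 in 19 arrays and at 3.06 to 4.73 in 10, with 2 high arrays on the rich side and 4 on the poor side (difference −1.22, limma adjusted p = 0.765). Its slope on the score in the 17 other arrays was −0.04 ± 0.12.

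Of all 36685 rows, 27 had a Pearson r above 0.9 with the score over the 12 arrays, and 8 of these have no gene name here, out of 21861 rows without 1 symbol. Their differences between the rich and the poor side were 0.78 to 4.99.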
